A study of Homo sapiens with 4 samples.

Results

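The ST6GALNAC sialyltransferases and the genes that supply them with sialic acid were examined in LNCaP95 prostate cancer cells and in LN95(KO), the line derived from them by targeting UGT2B17 with CRISPR vectors. The 10 genes, of 60880 listed in the count tables, were ST6GALNAC1 to ST6GALNAC6, CMAS, SLC35A1, GNE and NANS. ST6GALNAC1 was chosen by its counts, which were seen to appear in LN95(KO), so its values are a description with no test. The other 9 were picked for their role in the same sugar transfer. LNCaP95 is a subline of LNCaP that grows in androgen-depleted medium, and both lines were kept in charcoal-stripped serum with no further treatment. RNA-Seq of oligo(dT)-selected RNA gave 2 libraries of LNCaP95 (genotype WT, replicates 1 and 2) and 2 of LN95(KO) (genotype UGT2B17 KO, replicates 3 and 4). How many clones make up the knockout line is not stated, and the cell line field of the labels reads LN95 for all 4 libraries while the text on the series names LNCaP for the knockout.

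Mucin-type O-glycosylation starts when a polypeptide GalNAc-transferase places GalNAc on a serine or threonine, which makes the Tn antigen. Tn can be extended with galactose to the T antigen, or it can be capped with sialic acid, and ST6GALNAC1 is the principal enzyme that makes this capped form, sialyl-Tn, a carbohydrate antigen of many carcinomas that is scarce in most normal epithelia. The sialic acid comes from a pathway in which GNE catalyses the first committed steps from UDP-GlcNAc, NANS condenses the sugar into a sialic acid phosphate, CMAS activates the free sialic acid to CMP-sialic acid in the nucleus, and SLC35A1 carries CMP-sialic acid into the Golgi.

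Because isoenzymes can exchange reads, their sequences were compared first. Each stretch of 50 bases in the annotated transcripts of ST6GALNAC1 was looked up in the transcripts of all other genes, and 0 of 3711 were found elsewhere. No such stretch was shared between any of the 6 ST6GALNAC genes. The closest coding windows of 60 bases are shown to give an idea of how far apart the isoenzymes are. They lie in exon 4 of each gene, on the minus strand, are written 5′ to 3′ from GRCh37 with GENCODE release 44, and have in capitals the bases that are identical within the pair. The first pair compares ST6GALNAC1 at chr17:74623180-74623239 with ST6GALNAC2 at chr17:74569308-74569367, and 45 of the 60 bases are identical.
ST6GALNAC1: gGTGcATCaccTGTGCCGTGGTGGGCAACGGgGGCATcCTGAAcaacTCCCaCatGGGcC
ST6GALNAC2: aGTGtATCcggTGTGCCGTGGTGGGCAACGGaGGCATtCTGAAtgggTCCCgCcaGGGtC
The second pair compares ST6GALNAC1 at chr17:74623149-74623208 with ST6GALNAC4, an isoenzyme that passed the filter on low counts, at chr9:130674853-130674912, and 37 of the 60 bases are identical.
ST6GALNAC1: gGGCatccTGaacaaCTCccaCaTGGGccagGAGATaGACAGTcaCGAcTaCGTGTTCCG
ST6GALNAC4: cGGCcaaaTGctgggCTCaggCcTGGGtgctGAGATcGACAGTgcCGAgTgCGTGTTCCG
Over the coding bases aligned without a gap (1103 and 890), ST6GALNAC1 was 68.0% identical to ST6GALNAC2 and 70.6% identical to ST6GALNAC4. Gaps were not counted as differences, and the coding sequence of ST6GALNAC1 is longer (1800 bases against 1122 and 906). These percentages therefore do not rank the 2 isoenzymes by closeness. The longest run of identical coding bases was 20 with ST6GALNAC2 and 14 with ST6GALNAC4.

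UGT2B17, the targeted gene, gave 2788 and 2748 counts in LNCaP95 against 21 and 20 in LN95(KO), so the targeted gene goes with the labels. Gene reads ranged from 17330338 to 18813193 per library. A single count was worth 0.0541 to 0.0564 CPM (counts scaled to a common library size) and 3 counts, the limit that a count of 0 allows, 0.162 to 0.169 CPM. These limits and the intervals on ratios cover counting error only. Nothing in the sources says whether the 2 libraries of a group came from separate cultures, so the p-values measure the spread between these libraries, which may be technical. All 10 luminal prostate markers, among them KLK2, KLK3 and KRT8, passed the filter on low counts in these cells. Their summed level was 4742 to 4781 CPM in LNCaP95 and 4355 to 4573 CPM in LN95(KO). None of 5 leukocyte markers passed it, with CD3E at 0 in every library and a summed level of at most 0.219 CPM. CD68 was also at 0, but 85.6% of its exonic bases are shared with other genes, where htseq cannot assign reads.

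ST6GALNAC1 was the gene of the family with the widest separation between the lines. Replicates 1 and 2, from LNCaP95, each had 1 count of it, and replicates 3 and 4, from LN95(KO), had 1639 and 1694. Scaled by library size, these were 0.0541 and 0.0545 CPM against 92.5 and 92.7 CPM. Both LNCaP95 libraries therefore held a single read of this gene, and both LN95(KO) libraries held nearly the same high level. The ratio of pooled scaled counts was 1705, with a 95% counting interval of 471 to 14081 that is wide because the LNCaP95 side rests on 2 counts. ST6GALNAC1 (ENSG00000070526.14_3) is a protein-coding gene of 11 exon blocks on the minus strand, chr17:74620843-74639868 of GRCh37, and 0.0% of its exonic bases are shared with another gene. In bulk RNA, more expressing cells and more RNA per cell cannot be told apart.

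Among genes that passed the filter, the ST6GALNAC1 level per kilobase of merged exons stood above that of 90.2% of 15534 genes with a length in LN95(KO). In LNCaP95 it stood above 0.521% of them. ST6GALNAC1 passed the filter only through its LN95(KO) counts, so its low place in LNCaP95 follows from its choice and is a description. In LN95(KO) its level per kilobase was slightly above that of CMAS, whose enzyme makes the donor that ST6GALNAC1 uses. The ratio of ST6GALNAC1 to CMAS per kilobase was 1.14 in both LN95(KO) libraries.

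ST6GALNAC4, an isoenzyme that mainly adds sialic acid to T antigen already capped by another sialyltransferase, supplied nearly all ST6GALNAC transcripts in LNCaP95. Its counts were 298 and 312 against 322 and 335 in LN95(KO). The mean level was 16.6 ± 0.627 CPM (SD, n = 2) and 18.2 ± 0.116 CPM (SD, n = 2). The LN95(KO) libraries were above both LNCaP95 libraries by a margin that did not pass the test. The log2 fold change was 0.14 ± 0.09 (SE), with a 95% interval of −0.06 to 0.34 and an adjusted p of 0.215 by edgeR's quasi-likelihood test with Benjamini-Hochberg adjustment over 15626 genes. ST6GALNAC4 lies at chr9:130670165-130679320 on the minus strand.

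The other 4 isoenzymes were at or near the detection limit in both lines. ST6GALNAC2, which acts on T antigen and less on Tn, had 1, 4, 0 and 0 counts in replicates 1 to 4. ST6GALNAC3, which acts on sialylated T antigen and gangliosides, had 1, 0, 0 and 0. ST6GALNAC5, a ganglioside sialyltransferase, had 2, 0, 1 and 0. ST6GALNAC6, which also acts on gangliosides, had 3 and 5 counts against 2 and 4, a ratio of 0.767 with a counting interval of 0.219 to 2.52. At most 5 counts were seen in any library for these genes, and a difference between the lines was not detectable at this depth. For ST6GALNAC2 and ST6GALNAC6, 59.1% and 47.0% of exonic bases are shared with overlapping genes in GENCODE release 44. The overlapping genes include ENSG00000284526 on the same strand and ENSG00000267078 on the opposite strand for ST6GALNAC2, and ENSG00000257524 on the same strand for ST6GALNAC6. Reads on such bases cannot be assigned to either gene by htseq, so both counts may be low for that reason, and the share of reads lost was not tested. ENSG00000284526 itself had 7, 0, 4 and 4 counts, ENSG00000267078 had 0 in every library, and ENSG00000257524 had 3, 2, 0 and 0.

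**Figure D1:**
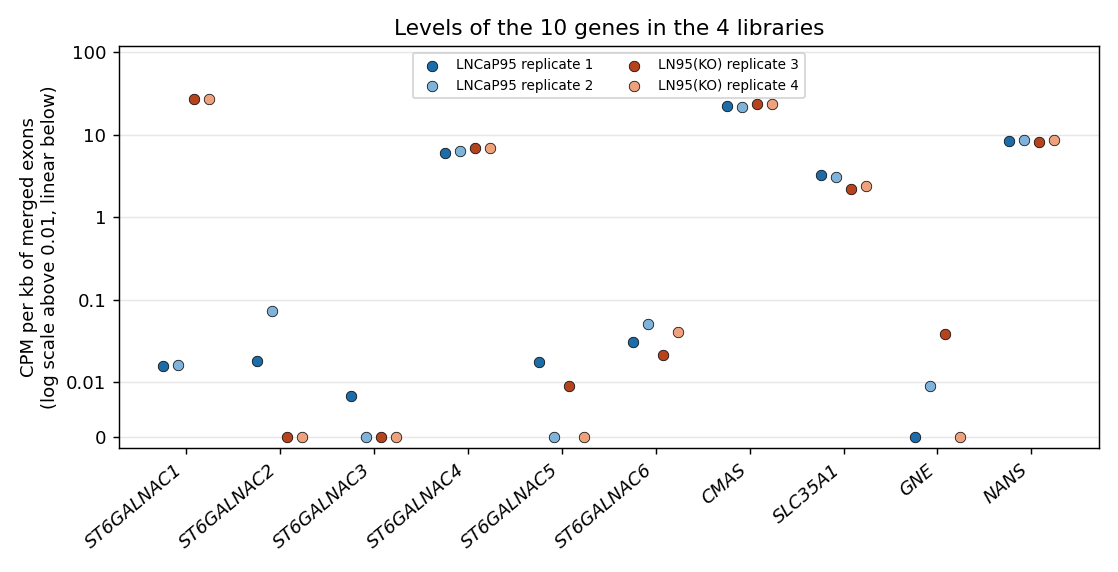
Level of each of the 10 genes in CPM per kilobase of merged exons (vertical axis, logarithmic above 0.01 and linear below), with 1 point per library. ST6GALNAC1 sits at 0.0159 and 0.0161 in LNCaP95, against 27.2 and 27.3 in LN95(KO), while ST6GALNAC4, CMAS, SLC35A1 and NANS differ far less between the lines and the other 5 genes stay below 0.1.

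Taken per kilobase, the make-up of the family therefore differed between the lines. ST6GALNAC4 accounted for 98.6% and 97.9% of the summed ST6GALNAC level in LNCaP95, against 20.2% and 20.3% in LN95(KO). ST6GALNAC1 accounted for 0.256% and 0.243% in LNCaP95, against 79.7% and 79.6% in LN95(KO). The summed level of the 6 genes was 5.34 times as high in LN95(KO), and with the length of the longest transcript in place of merged exons it was 4.61 times as high. The ratio of ST6GALNAC1 to ST6GALNAC4 per kilobase was 3.95 and 3.92 in LN95(KO). These shares follow from the choice of ST6GALNAC1 and are a description.

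**Figure D2:**
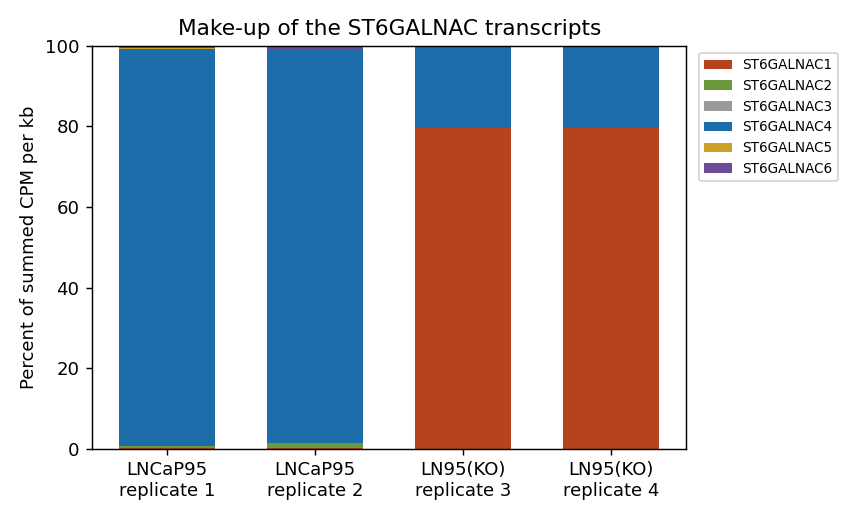
Share of each ST6GALNAC gene in the summed level of the 6 genes (percent of CPM per kilobase of merged exons), with 1 bar per library. ST6GALNAC4 fills 98.6% and 97.9% of the LNCaP95 bars, and ST6GALNAC1 fills 79.7% and 79.6% of the LN95(KO) bars.

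The supply of activated sialic acid was then examined, to see whether its genes moved in LN95(KO) as well. CMAS had 815 and 786 counts in LNCaP95 against 834 and 865 in LN95(KO), a mean of 43.5 ± 0.878 CPM and 47.2 ± 0.198 CPM (SD, n = 2 each). Its LN95(KO) libraries lay just above the LNCaP95 libraries. The log2 fold change was 0.12 ± 0.07 (SE, 95% interval −0.02 to 0.26, edgeR adjusted p = 0.131). Scaling by library totals instead of TMM factors gave an edgeR adjusted p of 0.0305 for CMAS, still far under a 2-fold change. CMAS lies at chr12:22199152-22218608 on the plus strand.

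NANS had 760 and 795 counts in LNCaP95 against 722 and 787 in LN95(KO), and the groups overlapped. The mean level was 42.2 ± 1.57 CPM and 41.9 ± 1.65 CPM (SD, n = 2 each). The log2 fold change was −0.01 ± 0.07 (SE), and the 95% interval of −0.16 to 0.14 bounds any difference well inside a 2-fold change (edgeR adjusted p = 0.901). NANS lies at chr9:100819014-100845359 on the plus strand, and 8.56% of its exonic bases are shared with TRIM14 on the other strand, which strand-blind counting cannot assign.

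SLC35A1, the transporter, was the only one of the other 9 genes with an adjusted p under 0.05. It had 122 and 113 counts in LNCaP95 against 79 and 87 in LN95(KO), a mean of 6.38 ± 0.311 CPM and 4.61 ± 0.215 CPM (SD, n = 2 each). Both LN95(KO) libraries were below both LNCaP95 libraries. The log2 fold change was −0.47 ± 0.16 (SE, 95% interval −0.80 to −0.14, edgeR adjusted p = 0.0161), short of a 2-fold change. DESeq2 gave an adjusted p of 0.222, and edgeR gave 0.0994 without LNCaP95 replicate 1 and 0.0724 without LN95(KO) replicate 3. The gene lies at chr6:88180341-88222054 on the plus strand and shares 55.5% of its exonic bases with the overlapping gene ENSG00000213204, which had at most 5 counts per library.

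GNE, the entry point of the pathway, was listed with 0, 1, 4 and 0 counts in replicates 1 to 4. It lies at chr9:36214438-36277039 on the minus strand and shares 0.0% of its exonic bases with another gene. GNE was thus near the detection limit in both lines while NANS and CMAS had at least 722 counts in every library.

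In all, 5 of the 10 genes passed the filter on low counts. Of the 4 that passed besides ST6GALNAC1, 0 were called at an edgeR adjusted p under 0.05 and a fold over 2, against 18.0% of all genes tested (8.86% higher and 9.13% lower in LN95(KO)). DESeq2 also called 0. At an unadjusted p under 0.05, 1 of the 4 passed (SLC35A1), and the same 1 passed the adjusted threshold at any fold, where the share of all genes was 59.8% (29.8% higher and 30.1% lower). The 2 groups did not overlap for 3 of the 4, against 79.8% of all genes tested. The median log2 fold change of the 4 was 0.05, and that of all genes was −0.01.

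By level per kilobase of merged exons, the order in LNCaP95 was CMAS (22.0 ± 0.445, SD, n = 2), NANS (8.56 ± 0.319), ST6GALNAC4 (6.29 ± 0.238) and SLC35A1 (3.20 ± 0.156), each separated from the next by more than their SDs. In LN95(KO) the order was ST6GALNAC1 (27.3 ± 0.0473), CMAS (23.9 ± 0.100), NANS (8.50 ± 0.334), ST6GALNAC4 (6.93 ± 0.0442) and SLC35A1 (2.31 ± 0.108). Neighbours in this order were again apart by more than their SDs. The remaining genes, ST6GALNAC1 in LNCaP95 among them, lay under 0.05 on average and could not be ordered. The order depends on the length used for SLC35A1. Divided by the exonic length it shares with no other gene, SLC35A1 was at 7.19 ± 0.350 in LNCaP95, above ST6GALNAC4, and at 5.19 ± 0.242 in LN95(KO), below it. The ratio of CMAS to SLC35A1 per kilobase of merged exons was 6.75 and 7.03 in LNCaP95, against 10.7 and 10.0 in LN95(KO).

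The surrounding pathway was described with 6 lists of genes outside the 10. Of 73 genes listed, 45 passed the filter and 13 (28.9%) were called, 5 higher and 8 lower in LN95(KO). Over all genes tested, 18.0% were called, 8.86% higher and 9.13% lower, and these shares stand beside each list below.

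In the supply of UDP-sugars and sialic acid, 1 of 11 tested genes was called higher and none lower, with a median log2 fold change of 0.00. GFPT1, the rate-limiting enzyme of the hexosamine pathway, was lower by less than 2-fold, with a log2 fold change of −0.88 ± 0.05 (SE, edgeR adjusted p = 2.66e-10). Its counts were 10554 and 10305 in LNCaP95 against 5773 and 5282 in LN95(KO). UAP1, of the same list, was higher by less than 2-fold (log2 fold change 0.74 ± 0.05 SE, edgeR adjusted p = 6.69e-10). PGM3 was lower by less than 2-fold (−0.74 ± 0.07 SE on the log2 scale, edgeR adjusted p = 4.18e-08). Of the 11 genes, 6 had a log2 fold change above 0 and 5 below.

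Of the enzymes that compete with ST6GALNAC1 for the Tn antigen or act on its first products, 5 were tested, 0 were called higher and 1 was called lower. B3GNT6, which extends Tn with GlcNAc, fell from 245 and 247 counts to 49 and 32 (log2 fold change −2.57 ± 0.18 SE, edgeR adjusted p = 1.06e-09). C1GALT1, the T synthase, had 469 and 442 counts against 459 and 490, a log2 fold change of 0.09 ± 0.08 (SE, edgeR adjusted p = 0.350). Its chaperone C1GALT1C1 had 592 and 561 counts against 403 and 490, a log2 fold change of −0.34 ± 0.09 (SE, edgeR adjusted p = 0.00318) that did not reach a 2-fold change.

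Of the polypeptide GalNAc-transferases, which make Tn, 11 of 20 were tested, with a median log2 fold change of −0.63. Of the 11, 1 was called higher and 5 lower, beside 8.86% and 9.13% of all genes tested. GALNT3 fell from 5224 and 5167 counts to 917 and 966 (log2 fold change −2.43 ± 0.05 SE, edgeR adjusted p = 1.78e-16). GALNT7, which prefers peptides that already carry GalNAc, fell from 2696 and 2855 counts to 632 and 661 (−2.07 ± 0.06 SE on the log2 scale, edgeR adjusted p = 9.92e-15). The summed level of the 20 genes was 893 to 914 CPM in LNCaP95 libraries, against 473 to 474 CPM in LN95(KO). GALNT17 dropped from 423 and 402 counts to 3 and 4 (−6.80 ± 0.22 SE on the log2 scale, edgeR adjusted p = 4.36e-14), and GALNTL6 dropped from 64 and 70 counts to 2 and 2. GALNT10 was called lower at a log2 fold change of −1.04, at the edge of the 2-fold limit. The isoform called higher was GALNT18, with 101 and 118 counts against 262 and 300 (1.39 ± 0.13 SE on the log2 scale, edgeR adjusted p = 6.17e-08). GALNT1 and GALNT2, which are widely expressed, moved by less than 2-fold in opposite directions, with log2 fold changes of −0.50 and 0.30 and edgeR adjusted p-values of 1.19e-07 and 5.61e-05.

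Among the other sialyltransferases, 10 of 14 were tested, 3 were called higher and 1 lower, beside 8.86% and 9.13% of all genes tested. ST8SIA4, a polysialyltransferase, went the opposite way to ST6GALNAC1. It had 2940 and 2830 counts in LNCaP95 against 1 and 0 in LN95(KO), a ratio of 0.000177 with a counting interval of 4.49e-06 to 0.000988. Its relative ST8SIA2 rose from 3 and 4 counts to 19 and 16 (log2 fold change 2.31 ± 0.50 SE, edgeR adjusted p = 0.000724). ST8SIA5 and ST3GAL6 were called higher at low counts, 17 and 20 against 43 and 33, and 6 and 4 against 10 and 14. The ST3GAL6 call was lost with DESeq2, with no filter on low counts and without any 1 of the 4 libraries, and the ST8SIA5 call with DESeq2 and without LNCaP95 replicate 1 or LN95(KO) replicate 3. ST3GAL1, which caps the T antigen, had 6137 and 6210 counts against 8279 and 7532, a log2 fold change of 0.39 ± 0.06 (SE, edgeR adjusted p = 1.05e-05) under 2-fold.

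Of the sialidases and the sialic acid O-acetylation genes, 4 of 6 were tested and 0 were called by edgeR or by DESeq2, and 1 of them (NEU3) had an unadjusted p under 0.05 in edgeR. Of 14 mucins and other carriers with a row in the table, 4 were tested and 1 was called. MUC13, a membrane mucin, fell from 60 and 50 counts to 3 and 1. MUC1, a carrier of sialyl-Tn in carcinomas, had 32 and 32 counts against 21 and 23 (log2 fold change −0.51 ± 0.28 SE, edgeR adjusted p = 0.130). PODXL, a sialomucin of the cell surface, had 814 and 884 counts against 790 and 832 (log2 fold change −0.03 ± 0.07 SE, edgeR adjusted p = 0.695).

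**Figure D3:**
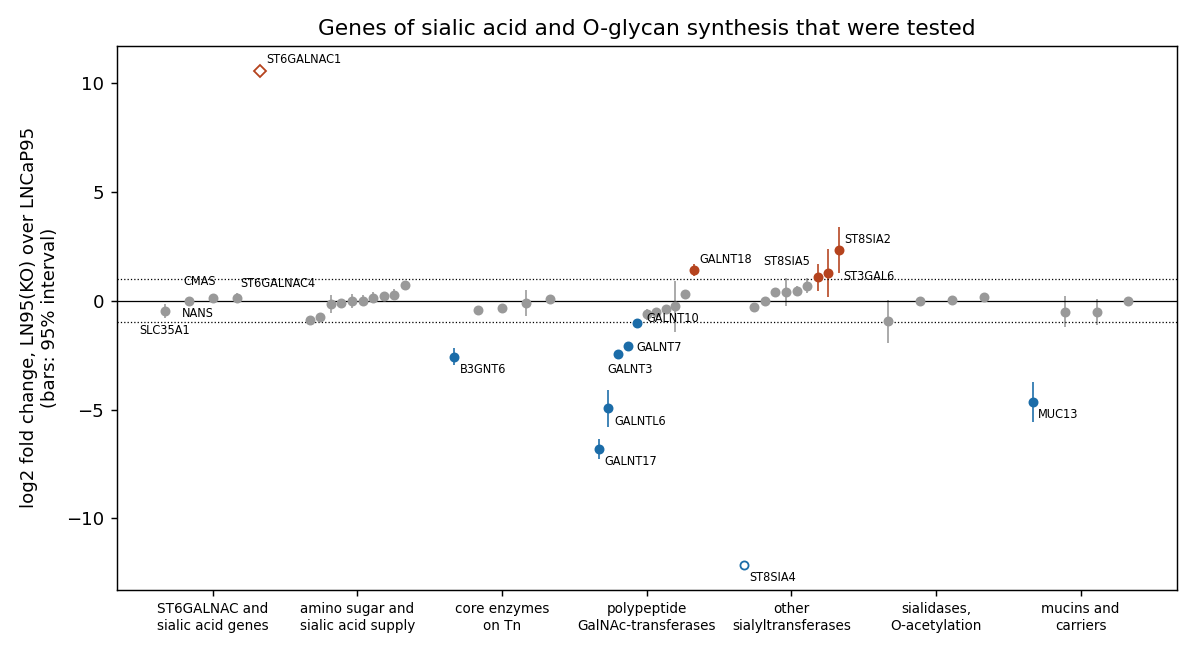
Log2 fold change of LN95(KO) over LNCaP95 for the tested genes of the 7 groups, all but 1, with 95% intervals from edgeR and dotted lines at a 2-fold change (red called higher, blue called lower, grey not called). Open symbols without intervals are the fitted values of ST6GALNAC1, which was not tested, and of ST8SIA4, which depends on the prior count, since each gene had at most 2 counts in 1 of the lines.

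Position was not used to choose the genes, so the neighbourhood of ST6GALNAC1 on chromosome 17 was described too. Within 500 kb, 20 genes were tested and 4 were called, 3 higher and 1 lower, which is near the 18.0% of all genes. Their median log2 fold change was −0.05, and 9 of the 20 were above 0. SNHG16, a non-coding host gene of small nucleolar RNAs, runs across ST6GALNAC1 on the opposite strand and rose from 420 and 384 counts to 849 and 919 (log2 fold change 1.17 ± 0.08 SE, edgeR adjusted p = 5.58e-10). No exonic base of ST6GALNAC1 is shared with SNHG16 in the annotation. UBALD2 rose from 628 and 609 counts to 1188 and 1354 (1.07 ± 0.07 SE on the log2 scale, edgeR adjusted p = 5.24e-10). PRCD, a photoreceptor disc gene, had 1 and 2 counts against 11 and 11, and MGAT5B, an N-acetylglucosaminyltransferase, had 11 and 16 against 0 and 8, so both calls rest on few reads. The 3 genes called higher all start at lower coordinates than ST6GALNAC1, as does a small majority of the 20 tested genes. RHBDF2, on that side too, fell just short of 2-fold (log2 fold change 0.95 ± 0.09 SE, edgeR adjusted p = 8.87e-08). UBE2O, also on that side, had a log2 fold change of 0.06. MXRA7, one of the nearest tested genes on the other side, had a log2 fold change of 0.33 and was not called. SEC14L1, also on the other side, was lower by less than 2-fold (log2 fold change −0.60 ± 0.08 SE, edgeR adjusted p = 4.54e-06). Within 1000 kb, 6 of 41 tested genes were called. DESeq2 called 2 neighbours within 500 kb. The largest change among the called neighbours was that of PRCD, at 2.81 on the log2 scale.

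**Figure D4:**
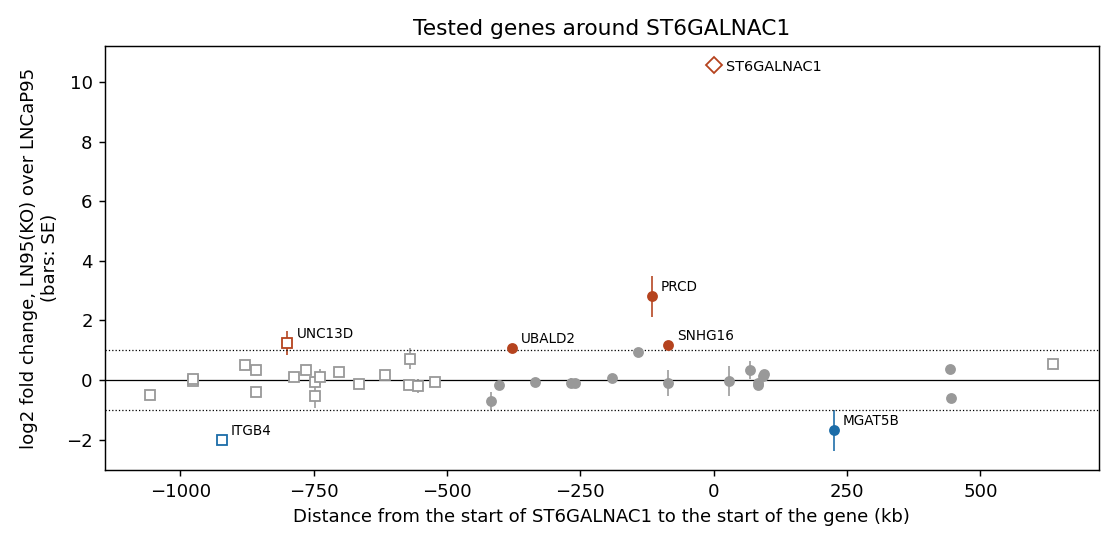
Log2 fold change with SE (vertical axis) of the tested genes around ST6GALNAC1 by distance between gene starts in kb (filled circles for a gap between gene bodies of up to 500 kb, open squares up to 1000 kb, red called higher, blue called lower). The fitted value of ST6GALNAC1 (open diamond, not tested) stands apart. The called neighbours lie among genes near 0. Those called higher within 500 kb are all at negative distances, as is a small majority of the tested genes in that window.

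The genes whose levels over the 4 libraries were most like those of ST6GALNAC1 were found by Euclidean distance in log2 CPM with a prior count of 2, over all genes tested. They were HPGD at a distance of 0.879, FAM110B at 2.30, EPHA3 at 2.62, PLA1A at 2.64 and ADGRF1 at 2.86. HPGD, the dehydrogenase that inactivates prostaglandins, had no read in LNCaP95, against 1326 and 1596 counts in LN95(KO). EPHA3, an ephrin receptor, had 7 and 8 against 2841 and 3079, and PLA1A, a phospholipase, had 8 and 6 against 3406 and 3269. ADGRF1, an adhesion receptor, had 0 and 0 against 425 and 442. These genes lie on chromosomes 4, 8, 3, 3 and 6, respectively, and none is on chromosome 17. The 4 points of each gene share their libraries, and the likeness is a description.

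Markers of other cell types were read beside these results. Over all genes tested, 18.0% were called, 8.86% higher and 9.13% lower in LN95(KO). Of 8 goblet and secretory mucosal markers, a cell type that makes sialylated mucins, 4 were tested, 1 was called higher (FCGBP, log2 fold change 1.02) and 1 lower (TFF3, −1.60). Their summed level was 140 to 142 CPM in LNCaP95 and 176 to 177 CPM in LN95(KO), most of it from SPDEF, which was not called (126 ± 0.298 against 157 ± 0.356 CPM, SD, n = 2 each). MUC2 had at most 1 count, and CLCA1 was at 0. Of the 10 luminal markers, all tested, 4 were called higher, among them KLK2 (log2 fold change 4.91) and KLK3 (3.62). In the same list 2 were called lower, FOLH1 (−1.30) and STEAP2 (−1.25). Of 4 basal markers only KRT14 was tested and called higher, at 1 and 2 counts against 17 and 20. Of 6 neuroendocrine markers 3 were tested and 2 called lower, and their summed level was 7.52 to 8.67 CPM against 2.35 to 2.48 CPM. Of 6 fibroblast markers 4 were tested, with PDGFRB called higher and LUM lower, and the sums, mostly COL1A1 (not called), were 31.1 to 32.3 CPM against 35.0 to 38.1 CPM. Of 3 endothelial markers VWF was called higher and CDH5 was at 0, with sums of 0.433 to 0.491 CPM against 2.76 to 3.17 CPM. The part of these shifts in the ST6GALNAC1 values was not tested.

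Promoter sequence was compared for the members with an entry in the RefSeq table of GRCh38.p14, which were 8 of 10, with 11 windows of 300 bases. ST6GALNAC1 and ST6GALNAC2 had no entry. The 250 bases before the start of ST6GALNAC4, an isoenzyme that passed the filter on low counts, and of ST6GALNAC5, an isoenzyme near 0, are shown as examples of 2 paralogs, 5′ to 3′ on the strand of the gene, with the motifs GGGCGG (on either strand) and CCAAT in capitals. They are chr9:127917042-127917291 on the minus strand and chr1:76867230-76867479 on the plus strand.
ST6GALNAC4: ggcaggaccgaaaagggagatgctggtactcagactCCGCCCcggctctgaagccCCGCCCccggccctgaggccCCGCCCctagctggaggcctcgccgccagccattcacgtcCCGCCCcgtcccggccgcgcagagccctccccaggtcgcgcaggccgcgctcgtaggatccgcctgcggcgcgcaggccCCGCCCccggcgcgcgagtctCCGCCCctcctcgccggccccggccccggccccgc
ST6GALNAC5: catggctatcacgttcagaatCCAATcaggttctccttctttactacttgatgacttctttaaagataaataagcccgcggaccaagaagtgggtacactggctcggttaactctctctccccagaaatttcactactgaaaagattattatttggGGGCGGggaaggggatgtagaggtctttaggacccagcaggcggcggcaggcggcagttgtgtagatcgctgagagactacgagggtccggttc
Counted on both strands of the whole 300-base window, with overlaps between motifs allowed, ST6GALNAC4 held 7 copies of GGGCGG and no CCAAT, and ST6GALNAC5 held 1 of each. ST6GALNAC3, also near 0, held 3 copies of GGGCGG, and the 3 windows of ST6GALNAC6 held 2, 5 and 0. GGGCGG was found in 44.9% and CCAAT in 34.6% of all 34796 promoters in the table. Neither window held TATAAA, which 11.6% of promoters hold, or AGAACA, a partial site of steroid receptors, which 14.8% hold. In the other windows AGAACA occurred once in NANS and once in 1 of 3 ST6GALNAC6 windows. These matches describe the letters of the windows.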

How the data were processed

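RNA-Seq was analysed in 2 LNCaP95 and 2 LN95(KO) libraries, grouped by the sample labels. The deposited values are raw read counts, 1 per gene and library. Alignment by the authors was to hg19 with hisat2 (2.1.0), and htseq counted the alignments on GENCODE genes without using strand. The table of the series and the files of single libraries held the same values (0 cells differed). The 5 summary lines were left out of library sizes and tests. Gene symbols, coordinates, exon lengths and overlaps were read from GENCODE release 44 for GRCh37, which matches the build of the counts but is a later release, so a listed overlap can differ from the one counted with. Of the identifiers, 59899 had a symbol and 981 did not (0.0575% of gene reads).

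Replicates differed by more than sampling noise (chi-square per degree of freedom 2.31 and 3.31) and were kept as separate libraries. The main test was edgeR's quasi-likelihood test (edgeR 4.0.16 in R 4.3.3) with TMM factors, filterByExpr (minimum count 10, minimum total 15; 15626 genes kept), robust estimation, no covariate and Benjamini-Hochberg adjustment over the genes kept. Calls needed an adjusted p below 0.05 and more than a 2-fold change, the thresholds of the study, which used DESeq2. CPM used TMM-scaled library sizes, and levels were compared between genes only per kilobase of merged exons. The scripts were tested on simulated data. For named genes with few counts in a group, pooled scaled counts were compared as a ratio with its exact binomial 95% interval. Tried as alternatives were DESeq2 (version 1.42.0), RLE, upper-quartile and library-total scaling, no filter, glmTreat, no fold criterion, leaving out each library, a wider neighbour window and other gene lengths.

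The named genes were the 10 members, UGT2B17, called genes of the 6 pathway lists, called genes within 500 kb of ST6GALNAC1 and the 5 genes nearest to it in log2 CPM. Other names were chosen after their values were seen. The members and lists were chosen with earlier results of these data known. 1 gene that this rule names is not reported here.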

Additional observations from a re-analysis of the deposited data

How the results depend on the processing

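The number of genes called among all tested was 2811. It was 1687 with glmTreat against a 2-fold change and 9349 with no fold criterion, and it lay between 2539 and 2777 when 1 library was left out. Of the 4 tested members besides ST6GALNAC1, 0 were called under each alternative, leave-one-out included, except that 1 (SLC35A1) was counted with no fold criterion. Of the pathway genes, 13 were called, 27 with no fold criterion and 11 without any 1 library. Of the neighbours of ST6GALNAC1 within 500 kb, 4 were called, 2 with DESeq2, 2 with glmTreat, 8 with no fold criterion and 2 to 4 when 1 library was left out (2 without LN95(KO) replicate 3). UGT2B17 ranged from −7.09 to −6.98 on the log2 scale. The share of ST6GALNAC1 in the family, 79.6% as a mean of the LN95(KO) libraries, was 76.4% with the longest transcript, 79.6 to 79.7% with 1 library left out, and 79.6% with unshared exon length, an alternative chosen after seeing the data.

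The log2 fold change of NANS was on the other side of 0 with library totals (0.044), without LNCaP95 replicate 2 (0.026) and without LN95(KO) replicate 3 (0.033), and it ranged from −0.049 to 0.033 with 1 library left out, always within its interval. GALNT10 fell just short of 2-fold with library totals, without LNCaP95 replicate 2 and without LN95(KO) replicate 4 (−0.98 each). The fitted log2 fold change of ST6GALNAC1, a value that depends on the prior count, was 10.56 and ranged from 10.53 to 10.73. Of 162 values for 18 single genes under alternatives, 12 lost a call (GALNT10, ST3GAL6 and ST8SIA5) and 3 changed sign (NANS). The others kept their direction, and the tested genes among them stayed called or not called. ST6GALNAC1, 1 of the 18, was not tested. By adjusted p at any fold, SLC35A1 rose above 0.05 with DESeq2 and CMAS fell below it in edgeR with library totals. The causes of these shifts were not tested. No paired analysis was possible because replicates 1 and 2 are both LNCaP95 and replicates 3 and 4 both LN95(KO). Depth limits the 5 members that did not pass the filter, for which only limits can be given, and with 2 libraries a group no spread between knockout lines was measured.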
